A study of Danio rerio with 4 samples.

Results

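A total of 80 genes that were brighter in miR-34b morphants than in controls, and whose symbols do not begin like those of the main ciliary, Hox, solute carrier and kinesin families, are described here out of 8793 named genes on a zebrafish (Danio rerio) array. They were chosen by their measured values: for each gene with a single symbol the brightest probe set was taken (by its mean over the 4 arrays), both morphant arrays had to lie above both control arrays, the mean difference had to be at least 1.5 on the log2 scale, and the morphant mean at least 7. Those values were met by 138 genes, 1.57% of the named genes, and 58 of them were then left out by the start of their symbol (tekt, dna, ift, bbs, cfap, ccdc, hox, fox, slc, kif and others). The differences between the groups below are therefore the values that chose the genes, given as a description with no test.

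The morphants were embryos of the AB background carrying Tg(cmyb:EGFP), in which the cmyb promoter drives EGFP, injected with a morpholino against miR-34b (2 arrays), and the controls were embryos of the same line and background injected with a control morpholino (2 arrays). At 3 days after fertilization, tissue around the kidney was dissected and dissociated, and 20000 GFP-positive cells were sorted for each RNA extract. The labels name the cells kidney multiciliated cells, and the series design calls the replicates independent biological sets. Their number limits the precision: for 2 arrays a group, 0.333 is the smallest two-sided p that exact permutation can reach.

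Multiciliated cells of the zebrafish pronephros, the embryonic kidney, carry bundles of motile cilia that drive fluid along the tubule. Cilia are built from a microtubule axoneme on a basal body, and many proteins of the axoneme are shared with the sperm tail. MicroRNAs of the miR-34 and miR-449 families are known for their high level in multiciliated tissues, where they act on messenger RNAs through a short seed sequence and are known to affect ciliogenesis. A morpholino is an antisense oligomer that blocks the RNA it is matched to. Whether a member is bound by miR-34b was not analysed here, and in sorted cells a change in the share of a cell type and a change in RNA per cell cannot be told apart.

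Markers of the labelled cell type were present, and so were those of other cell types. Of the axoneme markers on the list used here, 25 of 46 had a named probe set, 0 of these lay within background on all 4 arrays, and their mean log2 signal was 9.71 and 9.84 in the morphants, against 8.59 and 8.41 in the controls. Likewise 0 genes of the epidermis, erythroid, germ line, myeloid, neural and skeletal muscle lists lay within background on all 4 arrays. That trait therefore does not set the axoneme list apart. Skeletal muscle markers averaged 11.17 and 10.77 in the morphants and 11.96 and 11.45 in the controls (28 of 34 measured). Markers of myeloid and mast cells averaged 11.31 and 11.54 in the morphants and 11.47 and 11.32 in the controls (17 of 26 measured), and levels of different probe sets cannot be set against each other. Of the kidney tubule markers (19 of 33 measured), atp1a1a.5, pax8, slc12a3 and wt1a lay within background on every array, and atp1a1a.5 was at 0 on morphant replicate 2. Background here means a signal no brighter than the brightest of 20 probe sets on the array that match no zebrafish RNA, which lay at 4.43 and 4.11 on the morphant arrays and at 4.93 and 3.71 on the control arrays. Poly-A controls, added before amplification, averaged 9.52 and 8.72 on the morphant arrays and 9.91 and 9.87 on the control arrays, so morphant replicate 2 was dimmest. On that array the 3′ minus 5′ signal of the acta1 controls, a sign of RNA quality, was 3.39, against 2.38 on morphant replicate 1 and 2.54 and 2.47 on the control arrays. For the GAPDH controls it was 0.94 on that array, 0.36 on morphant replicate 1 and 1.02 and 0.88 on the control arrays. By GAPDH, then, morphant replicate 1 stood apart, and morphant replicate 2 lay near the controls. The part of RNA quality in the results was not tested.

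Across the 80 genes the median difference was 1.82 on the log2 scale, or 3.52-fold, within a range of 1.51 to 3.00, and 27 genes reached at least 2. The median over all 8793 named genes was −0.015. The median signal of the 80 genes was 9.17 and 9.08 on the morphant arrays, against 7.13 and 7.29 on the control arrays. The median distance between the 2 morphant arrays was 0.21 and between the 2 control arrays 0.26, and it was over 1 in 4 genes among the morphant arrays and in 5 among the control arrays. The lower morphant array exceeded the higher control array by at least 1 in 76 genes and by less in 4, namely ved, zgc:195245, setd9 and her2. Neither morphant array was the brighter one throughout, replicate 1 in 45 genes and replicate 2 in 35, and likewise control replicate 1 in 42 and control replicate 2 in 38. Levels ranged widely, with morphant means between 7.03 and 13.38 and control means between 4.57 and 11.52.

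In limma's moderated test over 11626 probe sets, the dimmest 25% left out, 63 of the 80 genes were called higher at a Benjamini-Hochberg adjusted p under 0.05, where 2.71% of the named genes and 2.49% of the probe sets tested were called higher, and 0.15% and 0.12% lower. The genes were chosen on this same contrast, so nothing is read from the count. It rested on every array: 0 of the 80 were called without morphant replicate 1 or without morphant replicate 2, 18 without control replicate 1 and 22 without control replicate 2. Over those probe sets limma also called 0 without morphant replicate 1 (1073 higher and 842 lower at unadjusted p under 0.05) and 0 without morphant replicate 2 (1251 and 729), so each call given below was lost there. It was lost too without the filter on dim probe sets, with 0 calls (1380 and 647). Both morphant arrays lay above both control arrays in 24.2% of all named genes and below them in 23.8%.

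**Figure D1:**
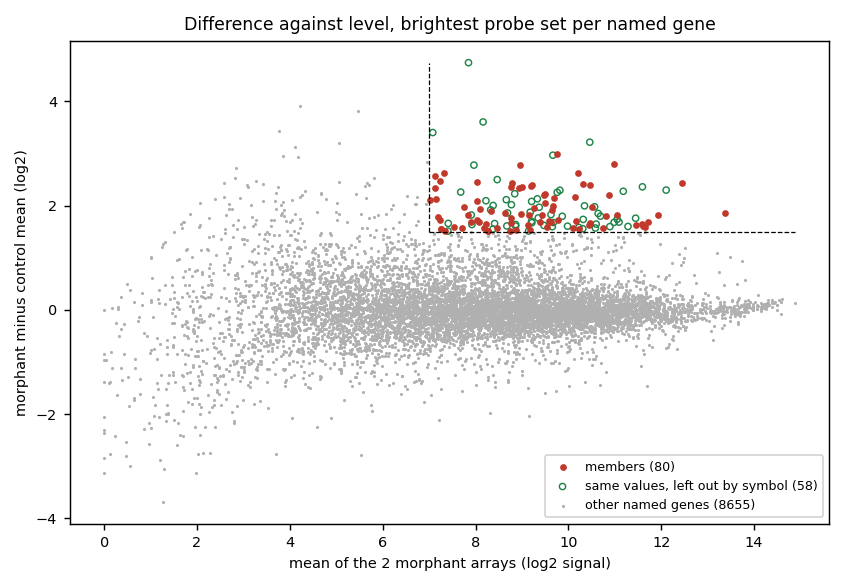
Mean difference between morphants and controls (log2, y axis) against the mean signal of the 2 morphant arrays (log2, x axis) for the brightest probe set of each of 8793 named genes. Red points are the 80 members, green circles the 58 genes with the same values that were left out by symbol, grey points all others, and dashed lines the thresholds at 1.5 and 7. The members lie at morphant means of 7.03 to 13.38 and differences of 1.51 to 3.00.

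The thresholds cut through a continuous range of values. Just inside the limit on the difference were her2 (1.51), asl (1.51) and setd9 (1.51), and just outside it septin8b (1.49), amy2al1 (1.49) and plg (1.48). Of asl, argininosuccinate lyase of the urea cycle, the signal was 7.39 and 7.30 in the morphants, against 6.16 and 5.50 in the controls. Just inside the limit on the morphant mean were akna (7.03), zgc:172136 (7.12) and en2a (7.13), and just outside it zgc:66473 (6.94), zpax1 (6.77) and marco (6.74). No gene that met both limits had overlapping groups (0 genes), so the requirement of separate groups removed no gene beyond the other limits.

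**Figure D2:**
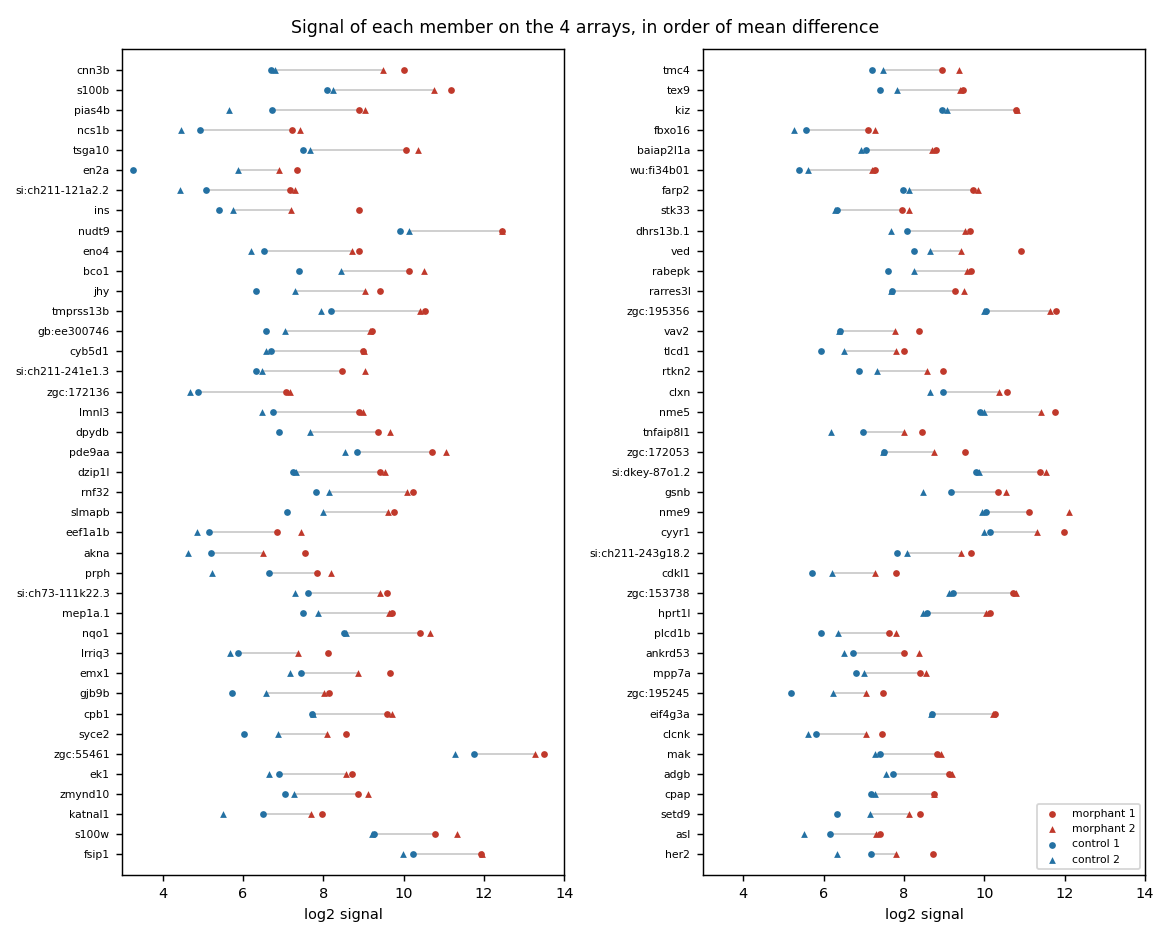
Log2 signal (x axis) of each of the 80 members on the 2 morphant arrays (red) and the 2 control arrays (blue), circles for replicate 1 and triangles for replicate 2, in order of mean difference from cnn3b (3.00) to her2 (1.51). Grey lines join the higher control array to the lower morphant array. The groups stand apart in every row because the rule required it, and the replicates of en2a, ins and ved spread most.

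The largest differences were those of an actin-binding protein and a calcium sensor. The largest was that of cnn3b, a calponin that binds actin, whose log2 signal was 9.998 and 9.49 in the morphants, against 6.69 and 6.81 in the controls. Both control arrays agreed within 0.12, and the mean difference was 3.00 ± 0.22 (limma's standard error, SE, here and below, n = 2 arrays a group). For s100b, a small EF-hand calcium-binding protein, the signal was 11.19 and 10.77 in the morphants, against 8.10 and 8.25 in the controls, a difference of 2.80 ± 0.21. Its relative s100w differed by 1.82 ± 0.23, with 10.78 and 11.32 in the morphants, against 9.26 and 9.20 in the controls. The neuronal calcium sensor ncs1b had 7.23 and 7.42 in the morphants, against 4.93 and 4.47 in the controls, and control replicate 1 lay within background. All 4 genes kept their groups far apart, and cnn3b, s100b and ncs1b were among the 5 with the widest gap between the groups.

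The other measured genes of these families lay on both sides of 0. Of the list of S100 and EF-hand calcium sensors, 29 of 53 genes were measured. The 26 that are not members had a median difference of 0.0022, with 13 above 0 and 13 below, and of 22 tested 0 were called by limma in either direction (3 higher and 0 lower at unadjusted p under 0.05). The paralog ncs1a had 8.43 and 9.23 in the morphants, against 7.57 and 8.08 in the controls, a difference of 1.01 ± 0.33 that did not pass (adjusted p = 0.214). In the list of calponins and actin-binding regulators, 30 of 55 genes were measured and the 28 other than members had a median of −0.034 and 0 calls among 27 tested (3 higher and 3 lower at unadjusted p under 0.05). Among them eps8a, an actin-capping protein, had 1.03 ± 0.17 (adjusted p = 0.0535) and tagln, a relative of the calponins, −1.35 ± 0.45 (adjusted p = 0.219). Besides cnn3b that list held gsnb, a gelsolin that severs actin filaments, with 10.34 and 10.55 in the morphants, against 9.16 and 8.47 in the controls and a difference of 1.63 ± 0.27. Further members grouped with the actin cytoskeleton were baiap2l1a, a membrane-bending adaptor (1.76), the exchange factors vav2 (1.69) and farp2, and rtkn2 (1.67). Of farp2 the signal was 9.72 and 9.85 in the morphants, against 7.97 and 8.13 in the controls, a difference of 1.73 ± 0.17.

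Proteins of cilia, centrioles and the sperm tail formed the largest group even after the symbols above had been left out. Of the 80 members, 17 are known from such structures, a grouping made with the member list in view, and their differences ran from 1.52 to 2.62 with a median of 1.80. Of tsga10, a protein of the sperm tail in mouse, the signal was 10.07 and 10.36 in the morphants, against 7.50 and 7.68 in the controls. That is a difference of 2.62 ± 0.19, with the groups more than 2 apart on the log2 scale. The radial spoke protein cyb5d1, also studied in zebrafish, had 8.98 and 9.02 in the morphants, against 6.69 and 6.58 in the controls. Replicates of cyb5d1 differed by no more than 0.11, and the gap between the groups made up 96.7% of its difference of 2.37 ± 0.16. For eno4, an enolase of the sperm tail in mouse, the signal was 8.88 and 8.71 in the morphants, against 6.53 and 6.20 in the controls (difference 2.43 ± 0.20). For jhy, a gene whose loss gives hydrocephalus and short ependymal cilia in mouse, it was 9.40 and 9.03 in the morphants, against 6.32 and 7.31 in the controls. The control arrays of jhy lay 0.99 apart, wider than its morphant arrays, and its difference was 2.40 ± 0.36.

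The other ciliary members were spread over many parts of the organelle. The dynein arm assembly factor zmynd10 had 8.85 and 9.11 in the morphants, against 7.04 and 7.27 in the controls, a difference of 1.83 ± 0.19. For nme5, a protein of the radial spoke, the signal was 11.75 and 11.42 in the morphants, against 9.88 and 9.98 in the controls. For mak, a kinase that limits the length of cilia, it was 8.83 and 8.92 in the morphants, against 7.40 and 7.27 in the controls. All of these had separate groups with replicates within 0.33 of each other. Proteins of the cilium base were also present: cpap, a centriole length factor, had 8.75 and 8.75 in the morphants, against 7.18 and 7.28 in the controls, and kiz, a centrosomal protein, 10.79 and 10.82 in the morphants, against 8.94 and 9.06 in the controls. In both the morphant arrays were within 0.03 of each other. Among the brightest members was fsip1, named after the fibrous sheath of the sperm tail, with 11.91 and 11.95 in the morphants, against 10.24 and 9.99 in the controls and a difference of 1.82 ± 0.18. Members given by their difference alone are dzip1l, of the transition zone (2.197), the microtubule-severing katnal1 (1.82), the kinases stk33 (1.72) and cdkl1 (1.58), clxn, calaxin, a calcium sensor of the outer dynein arm (1.67), nme9 (1.62) and adgb, androglobin (1.53). The gene tex9, named for its expression in testis, had 9.46 and 9.40 in the morphants, against 7.41 and 7.83 in the controls. For akna, a centrosomal protein in mouse neural progenitors, the signal was 7.55 and 6.50 in the morphants, against 5.20 and 4.64 in the controls, with the morphant arrays 1.05 apart.

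The list of further motile cilium and centriole genes held 5 of the members (tsga10, zmynd10, tex9, nme5 and mak) and showed how the rest of this group behaved. Of its 115 genes 37 were measured. Of these, 34 were separate and higher in the morphants and 1 separate and lower, against 24.2% and 23.8% of all named genes. The rule itself put the 5 members among the 34, so nothing is read from those 5. The 32 that are not members had a median difference of 1.14 with 29 above 0 and 3 below. Of these 32, 29 were tested, and limma called 10 higher and 0 lower (24 and 0 at unadjusted p under 0.05). The 10 were b9d1, cc2d2a, daw1, dcdc2b, dydc2, erich3, ofd1, pih1d2, plk4 and spef1. Among all named genes tested, 2.71% were called higher. The transition zone gene cc2d2a rose by 1.48 ± 0.16 (adjusted p = 0.0213), close under the limit of 1.5. The gene with the largest difference among those not members was poc5, a centriole protein, at 1.62 ± 0.33, which did not pass (adjusted p = 0.0846) and whose morphant mean was under 7. At the other end, rpgrip1l, of the transition zone, had −0.35. The axoneme list, built mostly from the symbols left out, had a median of 1.40 over 25 genes, and 11 of its genes met the values of the rule. Of its 24 genes tested, limma called 17 higher and 0 lower (21 and 1 at unadjusted p under 0.05).

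Transcription and nuclear factors made up 7 members, akna above among them. The largest difference was that of pias4b, of the PIAS family of SUMO ligases, with 8.90 and 9.04 in the morphants, against 6.72 and 5.64 in the controls. The control arrays of pias4b lay 1.08 apart and still stayed more than 2 below the morphant arrays, and its difference was 2.78 ± 0.37. Of the 12 other genes of the SUMO pathway measured (13 of 28 listed), 5 lay above 0 and 7 below, the median was −0.047 and 0 of 11 tested passed (at unadjusted p under 0.05, 1 higher and 0 lower). The other members here are mostly DNA-binding factors. The engrailed gene en2a, known from the midbrain-hindbrain boundary, had 7.35 and 6.91 in the morphants, against 3.27 and 5.87 in the controls. Its control replicate 1 lay within background, and the difference of 2.56 ± 0.83 was 1.26 without that array and 3.86 without control replicate 2. For emx1, a homeobox gene of the forebrain and of the distal pronephros in zebrafish, the signal was 9.67 and 8.85 in the morphants, against 7.45 and 7.17 in the controls, a difference of 1.95 ± 0.31. For ved, a homeobox gene of the ventral early embryo in zebrafish, it was 10.92 and 9.41 in the morphants, against 8.26 and 8.66 in the controls. Morphant replicate 1 stood 1.51 above morphant replicate 2 in ved, and without it the difference was 0.95 in place of 1.71. The hairy-related repressor gene her2 had 8.72 and 7.80 in the morphants, against 7.17 and 6.33 in the controls, the narrowest gap between groups of all members at 0.62. The SET domain gene setd9 had 8.41 and 8.11 in the morphants, against 6.35 and 7.15 in the controls.

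Markers of neural cells, which the dissected tissue could hold, had a median difference of 0.42. Of 27 neural genes measured (33 listed) 14 were separate and higher and 3 separate and lower, against 24.2% and 23.8% of all named genes. Limma called 0 of the neural genes (at unadjusted p under 0.05, 10 higher and 0 lower, against 1348 and 709 of 11626 probe sets). Their summed signal was 12508 and 11795 in the morphants, against 10707 and 10944 in the controls, 0 of them lay at background on all arrays, and their part in the values of en2a, emx1, prph, ncs1b and s100b was not tested. The neuronal intermediate filament prph, peripherin, had 7.84 and 8.20 in the morphants, against 6.64 and 5.23 in the controls, and its difference of 2.09 ± 0.47 was 1.38 without control replicate 2. The other filament gene among the members, lmnl3, belongs to the nuclear lamins, and its counterpart in Xenopus is known from oocytes. Its signal was 8.90 and 8.99 in the morphants, against 6.74 and 6.48 in the controls, a difference of 2.33 ± 0.18 with the control arrays 0.25 apart. The synaptonemal gene syce2, of meiotic chromosomes, differed by 1.89. Of the germ line markers 16 of 27 were measured. Separate and higher were 7, the member tsga10 among them by the rule, and separate and lower 2, against 24.2% and 23.8% of all named genes. The median of the 16 markers was 0.44. Their summed signal was 2662 and 2855 in the morphants, against 1080 and 1162 in the controls. That sum includes the member tsga10 (10.07 and 10.36 in the morphants, against 7.50 and 7.68 in the controls), grouped above with the sperm tail. Most of the rise of the sum came from tsga10 and was thus fixed by the rule. The sum also includes ddx4, which met the same values, so nothing is read from the rise. Besides tsga10, limma called nanos3, an RNA-binding protein of germ cells, higher (2.02 ± 0.30, adjusted p = 0.0389, with control replicate 1 within background). Of the genes other than members 8 were tested (3 higher and 0 lower at unadjusted p under 0.05). The germ cell helicase gene ddx4 had 7.97 and 7.72 in the morphants, against 1.81 and 4.40 in the controls, with control replicate 1 within background. It did not pass limma's test (adjusted p = 0.058) and was left out of the members by its symbol. Of the 15 genes other than members, 11 lay above 0 and 4 below, with a median of 0.41. Those below were piwil2 (−1.15), buc (−0.42), dnd1 (−0.37) and zp3b (−0.015). The part of germ cells in the values of lmnl3 and syce2 was not tested.

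Metabolic enzymes formed a group of 9 members with a median difference of 1.98. The brightest of them, nudt9, hydrolyses ADP-ribose and had 12.45 and 12.45 in the morphants, against 9.91 and 10.12 in the controls. Its morphant arrays agreed to the second decimal place, the gap between groups was 95.7% of the difference, and the difference was 2.43 ± 0.17. For bco1, which cleaves beta-carotene to retinal, the signal was 10.13 and 10.51 in the morphants, against 7.39 and 8.43 in the controls, and the control arrays were 1.04 apart (difference 2.41 ± 0.38). For dpydb, of pyrimidine breakdown, it was 9.36 and 9.65 in the morphants, against 6.89 and 7.67 in the controls, read with a probe set that the array design marks as shared between transcripts. For pde9aa, a phosphodiesterase of cyclic GMP, it was 10.71 and 11.06 in the morphants, against 8.84 and 8.53 in the controls, a 4.60-fold difference. In each of these 4 genes both morphant arrays lay at least 1.6 above both control arrays. For hprt1l, of purine salvage, the signal was 10.15 and 10.04 in the morphants, against 8.57 and 8.48 in the controls, and for dhrs13b.1, a short-chain dehydrogenase, 9.65 and 9.51 in the morphants, against 8.07 and 7.67 in the controls. The remaining enzymes were the quinone reductase nqo1 (1.98), asl and the phospholipase C plcd1b (1.57). The list of nudix, adenylate kinase and nucleotide enzymes had 31 of 63 genes measured and held nudt9, nme5 and hprt1l. Its 28 other genes had a median of −0.089, with 10 above 0 and 18 below, and limma called nme7 higher (1.44 ± 0.18, adjusted p = 0.029) and 0 lower (1 higher and 4 lower at unadjusted p under 0.05). None of the other nudix genes was called; nudt1 had −0.71 and nudt8 −0.60. The purine phosphorylase gene pnp6 had 1.57 at signals below the limit of 7, with control replicate 1 within background.

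Membrane proteins included a protease, a chloride channel and a connexin. The transmembrane serine protease tmprss13b had 10.53 and 10.41 in the morphants, against 8.20 and 7.95 in the controls, a difference of 2.40 ± 0.18. For clcnk, the chloride channel of kidney tubules, the signal was 7.46 and 7.07 in the morphants, against 5.81 and 5.62 in the controls, close to both limits of the rule. For cyyr1, a cysteine- and tyrosine-rich membrane protein, it was 11.98 and 11.32 in the morphants, against 10.14 and 9.99 in the controls, with the morphant arrays 0.66 apart. Others were slmapb, a tail-anchored membrane protein (2.15), the metalloprotease mep1a.1 (1.99), the connexin gjb9b (1.94), the Eph receptor ek1 (1.87), tmc4 (1.81), tlcd1 (1.68) and mpp7a, of the epithelial polarity complexes (1.56). In the list of chloride and tubule ion channels and ATPases (25 of 48 measured), clcnk was the only member. The other 24 had a median of −0.16, with 5 above 0 and 19 below, and 0 calls among 21 tested (0 higher and 1 lower at unadjusted p under 0.05). Of the 19, atp1a1a.5 and atp1b2b lay within background on every array. Of the 19 kidney tubule markers measured, 10 were separate and higher and 2 separate and lower, against 24.2% and 23.8% of all named genes. The 10 include pax8 and the 2 include atp1a1a.5, both within background on every array. The members emx1 and clcnk are among the 10 by the rule. They were also the 2 that limma called (of the others, 5 higher and 0 lower at unadjusted p under 0.05). The summed signal of that list was 8808 and 8043 in the morphants, against 6238 and 6733 in the controls. That sum includes emx1 and clcnk, so the rule fixed part of its rise. The part of kidney tubule cells in the values of both genes was not tested. The 17 not members had a median of 0.24, with 11 above 0 and 6 below. Of these, pax8 and wt1a (above 0) and slc12a3 and atp1a1a.5 (below 0) lay within background on every array, where the difference is not measured. Highest among the 17, the receptor ret had 1.25 ± 0.21 (adjusted p = 0.0538), the Notch ligand jag2b 1.11 and the transcription factor hnf1bb 1.00.

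A pair of members are products of the pancreas, another organ of the trunk. The hormone gene ins, insulin, had 8.88 and 7.198 in the morphants, against 5.39 and 5.76 in the controls. Morphant replicate 1 was 1.68 above morphant replicate 2, and the difference of 2.46 ± 0.55 was 1.62 without replicate 1. The carboxypeptidase gene cpb1 had 9.59 and 9.72 in the morphants, against 7.72 and 7.74 in the controls, with a difference of 1.92 ± 0.16 and morphant arrays 0.13 apart. Its second probe set was steadier in the morphants than in the controls, with 9.43 and 9.27 in the morphants, against 7.37 and 8.47 in the controls. Without control replicate 1 that probe set is the brighter one and the difference of cpb1 was 0.88. The list of pancreatic zymogens and carboxypeptidases had 21 of 37 genes measured. Of its 19 genes that are not members, 6 lay above 0 and 13 below, and the median was −0.68. Of these, 0 of 17 tested passed (at unadjusted p under 0.05, 2 higher and 4 lower). The amylase gene amy2al1, just outside the limit on the difference (1.49), is not in that list. The mean and summed signals of the list include the members ins and cpb1. Over all 21 genes the mean log2 signal was 7.42 and 7.59 in the morphants, against 7.44 and 8.43 in the controls. Control replicate 1 thus lay near the morphants, and control replicate 2 stood apart. The elastase gene ela2 had 5.36 and 5.69 in the morphants, against 7.55 and 9.07 in the controls. The summed signal of the list was 24846 and 27551 in the morphants and 27233 and 36280 in the controls, so the summed signals overlapped. Its brightest gene, cpa5, also stands in the myeloid and mast cell list. That gene had 14.13 and 14.16 in the morphants, against 14.27 and 14.07 in the controls. It gives much of each sum, so the sums do not measure pancreas cells alone. The part of pancreas cells in the values of ins and cpb1 was not tested.

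Among the remaining members were both kinds of translation factor, initiation and elongation. The initiation factor eif4g3a had 10.25 and 10.21 in the morphants, against 8.69 and 8.67 in the controls, and the gap between its groups was 98.0% of the difference, the highest share of all members. Its difference of 1.55 ± 0.16 was 2.40 with the mean of its 3 probe sets, of which 1 lay within background on both control arrays. The elongation factor eef1a1b differed by 2.13. For rnf32, a RING finger protein, the signal was 10.22 and 10.07 in the morphants, against 7.83 and 8.13 in the controls, a difference of 2.17 ± 0.19. Given by their difference alone are lrriq3 (1.97), the F-box protein fbxo16 (1.77), the Rab9 effector rabepk (1.69), rarres3l (1.69), tnfaip8l1 (1.64) and ankrd53 (1.56).

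A further 13 members carry only a clone name, and no role is given for them here. Their differences ran from 1.55 to 2.48 with a median of 1.73. The brightest of all 80 members was zgc:55461, with 13.50 and 13.27 in the morphants, against 11.76 and 11.28 in the controls. Another of the 5 brightest, zgc:195356, listed by RefSeq as a long non-coding RNA, had 11.79 and 11.63 in the morphants, against 10.05 and 9.99 in the controls. Its morphant arrays were 0.16 apart, and its difference was 1.69 ± 0.17. The largest differences in this group were those of si:ch211-121a2.2, with 7.18 and 7.29 in the morphants, against 5.09 and 4.42 in the controls, and of gb:ee300746, with 9.21 and 9.16 in the morphants, against 6.59 and 7.05 in the controls. For another clone of the si:ch211 series the signal was 8.47 and 9.04 in the morphants, against 6.33 and 6.47 in the controls. For zgc:172136 it was 7.08 and 7.16 in the morphants, against 4.88 and 4.68 in the controls, and control replicate 1 lay within background. In the order given, these 4 genes had differences of 2.48 ± 0.26, 2.37 ± 0.21, 2.35 ± 0.24 and 2.34 ± 0.17. For zgc:153738 it was 10.70 and 10.78 in the morphants, against 9.21 and 9.12 in the controls, and for si:ch211-243g18.2 9.66 and 9.42 in the morphants, against 7.83 and 8.06 in the controls. The signal of zgc:195245 was 7.47 and 7.05 in the morphants, against 5.19 and 6.24 in the controls, a difference of 1.55 that was 1.02 without control replicate 1. The others were si:ch73-111k22.3 (2.04), wu:fi34b01 (1.73), zgc:172053 (1.63) and si:dkey-87o1.2 (1.63).

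Further probe sets gave a second reading for 11 of the 80 genes, from the same arrays and so with no independent weight. Of 17 further probe sets, 3 of prph lay within background on all arrays, and 1 of eif4g3a did so on both control arrays (at least 1.32-fold higher in the morphants). The other 13, of 10 genes, had a median difference of 1.65 within 0.54 to 2.81. Of these, 12 had separate groups with the morphants higher, against 24.2% of all named genes, and 7 of the 12 also reached 1.5. They read genes that the rule had chosen on these same arrays, so nothing is read from these counts. The second probe set of nudt9 gave 11.65 and 11.63 in the morphants, against 8.70 and 8.96 in the controls, a larger difference (2.81) than the brightest. That of rnf32 gave 2.19, that of dhrs13b.1 1.76, that of zgc:153738 1.71 and the other measured one of eif4g3a 1.65, all near the value of the brightest. Smaller values came from gsnb (1.24), cpb1 (1.43) and tmprss13b (2.17 and 1.32). Those of si:ch211-243g18.2 gave 1.105 and 0.54. In farp2 the 2 further probe sets gave 1.92 and 1.099, and in the second of these the groups overlapped, with 7.07 and 5.65 in the morphants, against 5.79 and 4.73 in the controls.

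**Figure D3:**
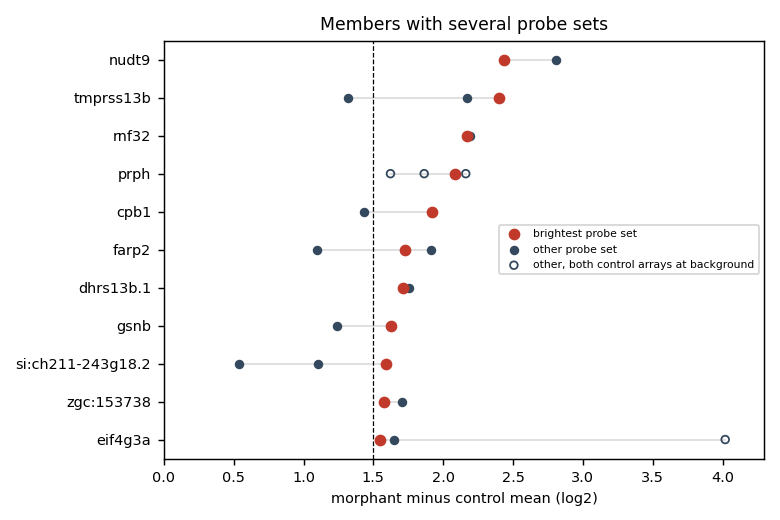
Mean difference between morphants and controls (log2, x axis) for each probe set of the 11 members with more than 1 (y axis). Red points are the brightest probe sets, dark points the others, open points those whose control arrays both lay within background, where the difference is not measured, and the dashed line marks 1.5. All points lie above 0, and nudt9, rnf32, dhrs13b.1 and zgc:153738 stay above 1.5 in both of their probe sets.

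The remaining lists hold none of the 80 members, and their medians lay near 0 or below. Skeletal muscle genes (28 of 34 measured) were all below 0, with 19 separate and lower and 0 separate and higher, against 23.8% and 24.2% of all named genes. The muscle genes had a median of −0.72. Limma called 0 of the muscle genes (0 higher and 14 lower at unadjusted p under 0.05, against 1348 and 709 of 11626 probe sets). Their summed signal was 165104 and 131317 in the morphants, against 220856 and 165239 in the controls. For epidermis and periderm the median was −0.25 over 30 of 34 genes, and elovl7a (1.22 ± 0.19, adjusted p = 0.0462) and pkp3a (1.11 ± 0.16, adjusted p = 0.0374) were called higher and 0 lower. Of that list 7 genes were separate and higher and 10 separate and lower, against 24.2% and 23.8% of all named genes. In the same list, unadjusted p under 0.05 was reached by 4 on each side. Erythroid genes had −0.0065 over 16 of 22, myeloid and mast cell genes 0.0040 over 17 of 26, and apoptosis and p53 target genes −0.017 over 26 of 39, each with 0 calls. At unadjusted p under 0.05 these held 0 higher and 1 lower (erythroid), 1 and 1 (myeloid), and 2 and 1 (apoptosis). In the list of CCR4-NOT deadenylation and BTG/TOB adaptors (21 of 27 measured) the median was −0.071, with btg4 called higher (2.84 ± 0.20, adjusted p = 0.0153, with control replicate 1 within background) and 0 lower. The bearing of these cell types on the 80 genes was not tested.

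**Figure D4:**
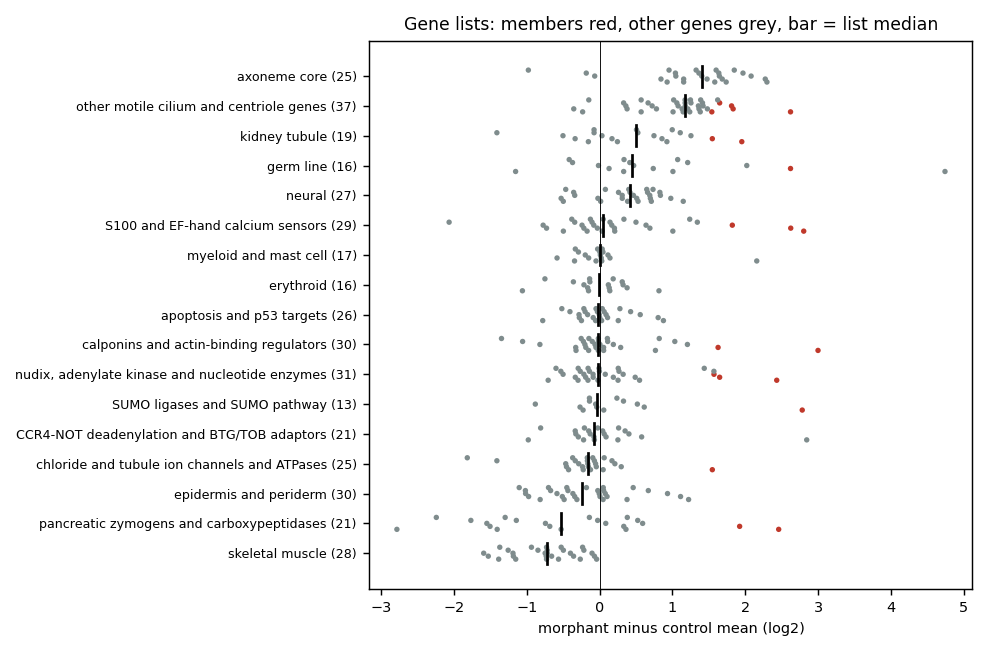
Mean difference between morphants and controls (log2, x axis) for the genes of 17 lists (y axis, number measured in brackets), each point 1 gene, red for members and grey for others, with a black bar at the list median. The medians of both cilium lists lie at 1.40 and 1.17. In the calcium sensor, calponin, nucleotide enzyme and SUMO lists the members stand to the right of genes that centre near 0.

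The members lay scattered in the genome. Of 79 placed in the RefSeq gene order, 2 pairs stood within 5 steps among protein-coding genes: en2a and rnf32 with 2 genes between them, and ins and tmprss13b with 3. Next to mpp7a, with 0 genes between, stood odad2, a ciliary gene left out by its symbol. The number of genes taken varied with the scaling of the arrays and with the limits. With quantile normalization 72 genes were taken, with median centring 66 and with cyclic loess 76, of which 75 are among the 80. With a limit of 1 on the difference there were 197 and with a limit of 2 there were 27. A limit of 8 on the morphant mean took 64.

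**Figure D5:**
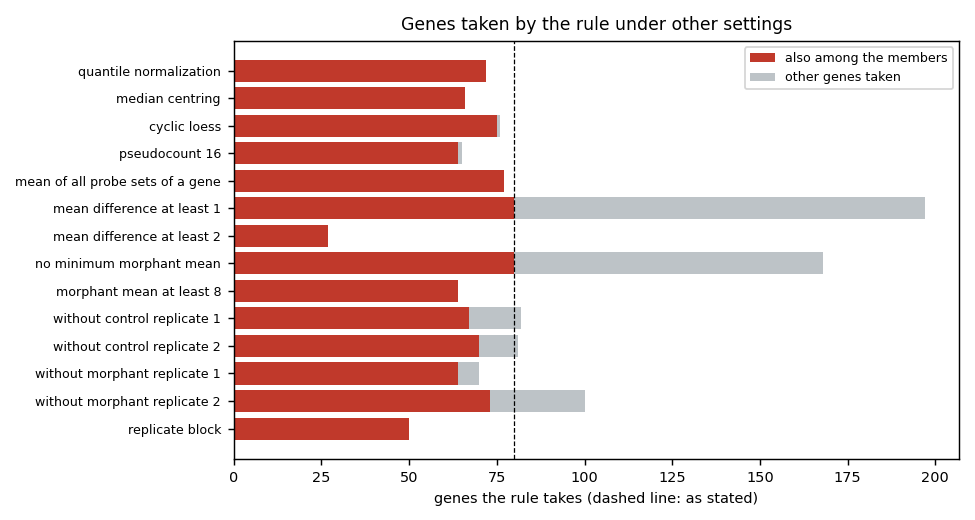
Number of genes taken by the rule (x axis) under 14 other settings (y axis), red for genes among the 80 members and grey for others, with a dashed line at 80. The count ran from 27 with a limit of 2 to 197 with a limit of 1, and without single arrays from 70 to 100.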

How the data were processed

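RNA of sorted cells from 2 morphant and 2 control samples was measured on Affymetrix zebrafish arrays, after amplification of 100 ng per sample. The authors deposited log2 values, 1 signal per probe set. The submitters' processing notes name MAS5 but give no version; each array had the same trimmed mean (500.1 without the outer 2% at each end).

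Of 15617 probe sets, 115 controls were left out. Of the rest 10795 carried 1 gene symbol, 135 several and 4572 none; 10711 were matched to RefSeq (GRCz12tu) through Entrez numbers, and 1 symbol was updated. No positions are printed. Limma 3.58.1 (R 4.3.3) compared the groups over all but the dimmest 25% of probe sets, with Benjamini-Hochberg adjustment, and was tested on simulated data. Python 3.11.15 and pandas 2.3.3 did the rest.

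The members, the 17 gene lists and the role groups were chosen with earlier results of these data known. Genes given on all arrays are the 20 largest differences, the 5 brightest, the 5 widest gaps, the 5 largest and 5 smallest shares of gap in difference, list members, genes with several probe sets and those nearest the limits (49 in all); the others are given by their difference. Non-members were named after their values were seen. Same-numbered arrays did not deviate together (r = 0.021 over 11626 probe sets), so no pairing was used. Other scalings, limits, filters and left-out arrays were tried. Planned shares of promoter motifs were not run.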

Additional observations from a re-analysis of the deposited data

Results flagged for a closer look

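A control probe set on the array that the annotation used here leaves without a name (for U43284) had a higher signal in the morphants and is in none of the comparisons above. Its log2 signal was 13.90 and 13.72 in the morphants, against 12.38 and 12.20 in the controls, a difference of 1.52, and the cause was not tested.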

How the results depend on the processing

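No difference of the 80 genes fell below 0 under any of the settings run, and 4 fell under 1 in at least 1 of them. The rule had set both morphant arrays above both control arrays. With the same probe set, that fixed a difference above 0 without single arrays, between same-number arrays and with a pseudocount. Nothing is read from it there. All of the other scalings and the pseudocount of 16 left 61 of the 80 genes in the list, and 49 stayed without each array in turn. Without single arrays the rule took 70 to 100 genes, 64 to 73 of the 80 among them, and the median difference of the 80 ran from 1.78 to 1.87. With the pseudocount the median of the 80 was 1.70. Over the genes taken the median was 1.39 with a limit of 1 (197 genes) and 2.37 with a limit of 2 (27 genes, all among the 80), and without a minimum on the morphant mean 168 genes were taken. With the replicate number as a block, that is with each same-number difference at least 1.5, 50 genes were taken, all among the 80, and the median of the smaller difference over all 80 genes was 1.61. Limma called 290 probe sets higher, 0 without the filter on dim probe sets (1380 at unadjusted p under 0.05), 483 with an intensity trend, 196 with the replicate block and 0 to 51 without single arrays. Of the 80 genes it called 63, 0 without the filter and 0 to 22 without single arrays, where 59 were called with the replicate block. Fewer arrays, and without the filter more probe sets, enter those fits. The filter and signals near background limit what the dim genes show.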

Other observations

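Of 4707 probe sets with several gene symbols or none, 43 met the same values as the 80 genes. A control probe set named pd2EGFP had log2 signals of 1.71 and 2.72 in the morphants and 3.74 and 1.61 in the controls, all within background. Whether it reads the EGFP RNA of the reporter used for the sort was not tested, so nothing is read from it.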
